A study of Mus musculus with 12 samples.

Results

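Transcripts of 10 genes that mark tissue near the hippocampus were followed through 12 hippocampal RNA libraries, out of 44760 genes counted in both deposited tables. They were listed by name, 7 as products of the choroid plexus (Ttr, Sostdc1, Kl, Folr1, Clic6, Aqp1 and Otx2) and 3 as products of the pituitary (Gh, Prl and Pomc), as measures of the dissection. Each of the 10 was found in both tables. All mice were male APPswe/PS1dE9 (APP/PS1) animals on a C57BL/6 background (N9B6), and carried human amyloid precursor protein with the Swedish mutation together with presenilin 1 lacking exon 9, so that no group is free of the transgenes. They received saline or nicotine hydrogen tartrate for 14 days from an osmotic mini pump under the skin. The label of the nicotine dose reads 48 mg/kg/h, and its unit is given here unchanged. The 4 groups of 3 libraries were saline and nicotine at 7 months and saline and nicotine at 18 months of age.

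The choroid plexus is a sheet of secretory epithelium that hangs in the brain ventricles and makes cerebrospinal fluid. Its cells devote much of their messenger RNA to transthyretin, which carries thyroxine and retinol-binding protein, and the plexus of the lateral ventricle lies against the hippocampus. The pituitary lies under the hypothalamus, and its hormone cells make growth hormone, prolactin and proopiomelanocortin from very abundant transcripts. In bulk RNA, more cells of a type and more RNA per cell cannot be told apart, and this holds for every level given here.

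Total counts per library were 25071195 to 29245972 at 7 months and 21260068 to 23715015 at 18 months. Nothing in the labels says which libraries came from separate animals, so the p-values measure the spread between these libraries only. Levels are in CPM, counts brought to a common library size, with trimmed mean of M-values (TMM) factors over the 12 libraries. The 17 genes of a hippocampal identity list were all in the tables and summed to 1555 to 2109 CPM per library. No library of another tissue was at hand, so this sum does not test the labelled tissue. Single genes of that list differed between the ages, with Zbtb20 at 3.22 to 6.39 CPM at 7 months and 109 to 129 CPM at 18 months. The nicotine libraries numbered 1 stood apart in the choroid plexus genes at both ages, and that of 7 months also in the pituitary genes. The saline and nicotine libraries numbered 1 at 7 months have another description prefix than the other 7-month libraries, and saline library 2 at 7 months held the highest level of 31.8% of the 22635 genes with at least 10 counts at that age, against 11.6% to 16.5% for each of the others.

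Promoter sequence was taken from a RefSeq table on GRCm38.p6, which matched 5 of the 10 members (Kl, Aqp1, Otx2, Prl and Pomc) in 8 windows, each running from 250 bases before to 50 bases after a start. Prl and Pomc are shown because the pituitary transcripts moved together, and 1 of the 4 Otx2 windows because it alone among the choroid plexus windows held the homeodomain core. Each line gives the 250 bases before the start, read 5′ to 3′ on the gene's strand, with matches to the motifs searched in capitals. The Prl stretch is chr13:27057320-27057569 on the plus strand, the Pomc stretch chr12:3954695-3954944 on the plus strand, and the Otx2 stretch chr14:48665110-48665359 on the minus strand.
Prl: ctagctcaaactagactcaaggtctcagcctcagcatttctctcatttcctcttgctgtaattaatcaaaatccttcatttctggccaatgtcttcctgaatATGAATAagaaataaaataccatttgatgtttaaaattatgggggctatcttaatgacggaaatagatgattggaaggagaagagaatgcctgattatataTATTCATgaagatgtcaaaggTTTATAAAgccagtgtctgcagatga
Pomc: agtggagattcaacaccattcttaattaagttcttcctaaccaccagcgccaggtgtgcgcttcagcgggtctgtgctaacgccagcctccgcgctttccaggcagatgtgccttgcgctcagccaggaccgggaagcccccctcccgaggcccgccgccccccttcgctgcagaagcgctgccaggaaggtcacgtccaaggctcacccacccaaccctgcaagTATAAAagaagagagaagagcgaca
Otx2: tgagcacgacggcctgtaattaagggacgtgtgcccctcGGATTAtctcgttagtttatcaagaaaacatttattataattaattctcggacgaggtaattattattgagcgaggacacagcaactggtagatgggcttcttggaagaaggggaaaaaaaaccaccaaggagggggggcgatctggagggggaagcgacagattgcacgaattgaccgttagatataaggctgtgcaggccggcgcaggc

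The motifs searched, on both strands, were TAATCC (the core bound by Otx homeodomain proteins), ATGNATA (the core of the Pou1f1 site, the factor of growth hormone and prolactin cells) and TATAAA (the TATA box). They occurred in 7.06%, 8.84% and 13.6% of the 32851 promoter windows of the same length in the table. With the start counted as position 0, Prl held ATGNATA from -148 to -142 on the forward strand and from -47 to -41 on the reverse strand. It also held TATAAA from -24 to -19 and, overlapping it on the reverse strand, from -26 to -21. Pomc held TATAAA from -25 to -20, and the Otx2 window shown held TAATCC from -211 to -206 on the reverse strand. Of the other 3 Otx2 windows, 1 held ATGNATA from -106 to -100 and TATAAA from -192 to -187, and 1 held ATGNATA from -242 to -236, all on the forward strand. The Kl and Aqp1 windows held none of the 3 strings. These matches are descriptions of the letters, not binding sites.

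Ttr, the transthyretin gene on chromosome 18 (20665280 to 20674321, GRCm38), had the widest range. At 7 months it had 103, 219 and 1527 CPM in saline libraries 1, 2 and 3 and 5872, 39.2 and 405 CPM in nicotine libraries 1, 2 and 3. In 18-month mice the values were 3.53, 62.3 and 2.44 CPM under saline and 1395, 3.45 and 2.36 CPM under nicotine. Nicotine library 1 was the highest of its age both times, and saline and nicotine overlapped at both ages. Nicotine library 1 stood 26.8-fold above the median of the other 5 libraries at 7 months and 405-fold above it at 18 months. It took 0.587% of all counts of its library at 7 months (169794 counts) and held 64.0% of the Ttr counts of the 12 libraries. At the other end, 4 of the 18-month libraries had 50 to 79 Ttr counts each, so a level of a few CPM was still well above the limit of 3 counts that a count of 0 allows. These intervals and limits cover counting error only.

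The secreted and membrane proteins followed the same order of libraries at the top. Sostdc1 codes for a secreted antagonist of BMP and Wnt signals and lies on chromosome 12 (36314139 to 36318452). It had 3.08, 5.32 and 20.1 CPM in the 7-month saline libraries and 42.4, 1.20 and 4.57 CPM in the 7-month nicotine libraries. At 18 months it had 0.893, 2.74 and 0.860 CPM under saline and 23.3, 1.26 and 1.98 CPM under nicotine. As with Ttr, the highest library of each age was nicotine 1, followed by saline 3 at 7 months and saline 2 at 18 months.

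Folr1, the folate receptor that moves folate into cerebrospinal fluid (chromosome 7, 101858331 to 101870788), had 1.56, 1.67 and 7.39 CPM under saline and 40.0, 0.120 and 3.25 CPM under nicotine at 7 months. At 18 months it had 0.179, 0.539 and 0 CPM under saline and 5.04, 0.186 and 0.283 CPM under nicotine. The library at 0 allows up to 0.136 CPM. Clic6, of the chloride intracellular channel family (chromosome 16, 92485736 to 92541243), had 3.52, 8.61 and 16.8 CPM under saline and 65.0, 1.32 and 7.05 CPM under nicotine at 7 months. At 18 months the levels of Clic6 were 1.03, 4.45 and 0.453 CPM under saline and 20.4, 1.02 and 0.661 CPM under nicotine. In both genes nicotine library 2 was the lowest at 7 months, as it was for Ttr and Sostdc1.

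Aqp1 codes for the water channel of the epithelium's ventricular surface (chromosome 6, 55336432 to 55348555). It had 0.949, 1.28 and 4.63 CPM under saline and 19.8, 0.642 and 1.94 CPM under nicotine at 7 months, and 0.491, 0.764, 0.226 CPM and 8.09, 0.512, 0.142 CPM at 18 months. Otx2 codes for a homeodomain transcription factor needed for the plexus (chromosome 14, 48657677 to 48673819). It had 1.02, 2.56 and 5.23 CPM under saline and 10.9, 0.321 and 1.47 CPM under nicotine at 7 months, and 0.357, 1.57, 0.0453 CPM and 6.39, 0.186, 0.236 CPM at 18 months. Both ranked nicotine 1 first and saline 3 next at 7 months, and nicotine 1 first and saline 2 next at 18 months.

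**Figure D1:**
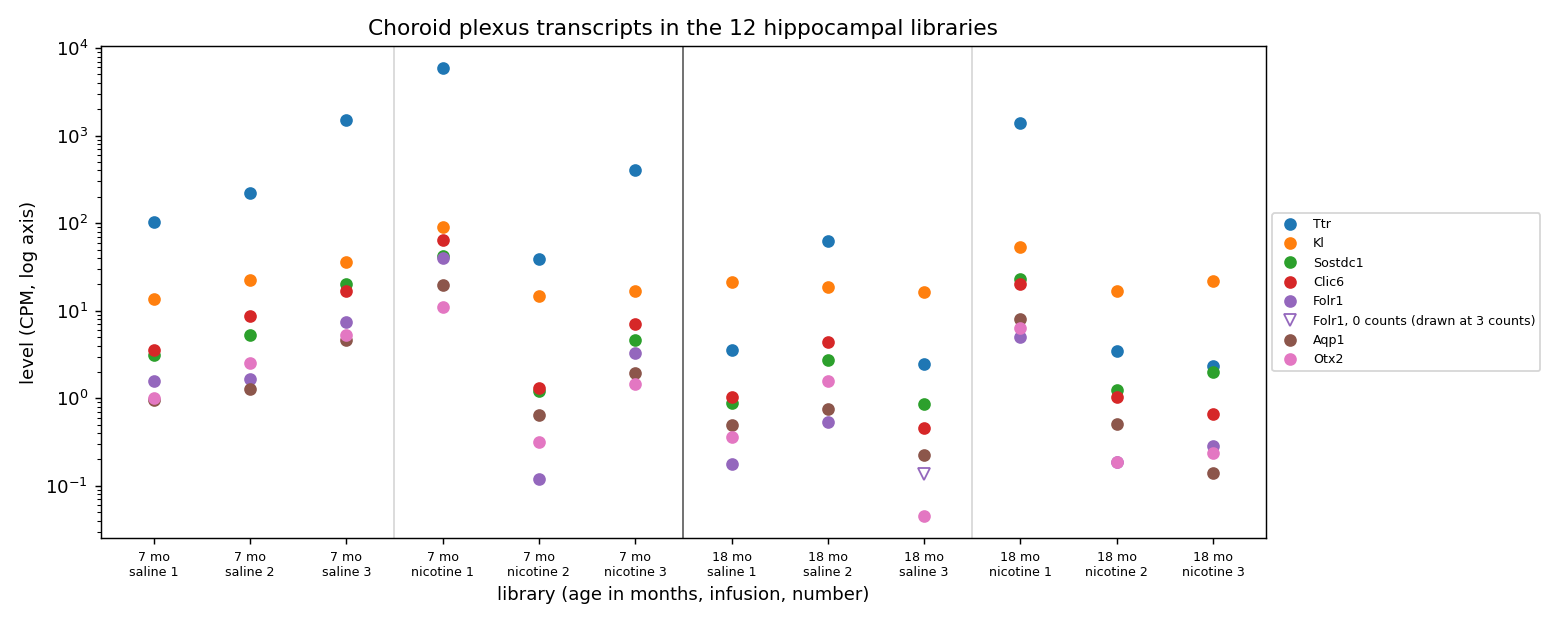
Level in CPM (log axis) of the 7 choroid plexus transcripts in each of the 12 libraries, grouped by age and infusion, with 1 point per gene and library. Nicotine library 1 is the highest of its age for every one of the 7 genes, and Kl changes least between libraries.

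Kl departed from the other 6. It codes for klotho, a co-receptor for fibroblast growth factor 23 that is made in the choroid plexus and also in neurons, and lies on chromosome 5 (150952607 to 150993817). Its levels were 13.7, 22.2 and 36.4 CPM under saline and 89.6, 14.6 and 16.9 CPM under nicotine at 7 months. At 18 months they were 21.2, 18.8 and 16.2 CPM under saline and 53.7, 16.9 and 22.0 CPM under nicotine. Kl therefore kept 13.7 CPM or more in every library, including those where Ttr had 2.36 to 3.53 CPM. Its highest library stood 5.31-fold (7 months) and 2.86-fold (18 months) above the median of the other 5, the smallest of the ratios computed for the 7 choroid plexus genes.

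Levels can be compared between genes only per length, here as CPM per kilobase of the gene's merged exons. On that scale Ttr stood at 4951 in 7-month nicotine library 1, followed by Gh at 104, Pomc at 52.0, Sostdc1 at 23.8, Folr1 at 17.4, Clic6 at 16.6, Kl at 9.61, Prl at 9.51, Aqp1 at 7.53 and Otx2 at 2.58. In 18-month nicotine library 3 the order changed, with Kl at 2.35 and Ttr at 1.99 CPM per kilobase. Ttr led in 7-month nicotine library 2 as well, at 33.0 CPM per kilobase, although that was its lowest library of the age.

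To see whether the choroid plexus transcripts kept a fixed proportion, their counts were set against Ttr in the 3 libraries with the most Ttr. This comparison was chosen after the data were seen. The libraries were picked by Ttr, which also divides each ratio. Per 1000 Ttr counts, Sostdc1 had 7.22 counts (95% Poisson interval of its count 6.82 to 7.64) in 7-month nicotine library 1, 13.2 (12.1 to 14.3) in 7-month saline library 3 and 16.7 (15.4 to 18.2) in 18-month nicotine library 1. Otx2 had 1.86, 3.42 and 4.58 counts per 1000 Ttr counts in the same order. Kl had 15.3, 23.9 and 38.5, which include the Kl also counted where Ttr was low. With the levels of the library lowest in Ttr at each age taken off, Kl had 12.9, 14.7 and 22.8 per 1000 Ttr. No interval was computed for these. In the raw counts of Sostdc1, Otx2 and Kl the library with the most Ttr had the lowest ratio. Its interval did not overlap those of the other 2 libraries. Folr1 went the other way, with 6.82, 4.84 and 3.61 counts per 1000 Ttr counts. Clic6 had 11.1, 11.0 and 14.7 and Aqp1 3.37, 3.03 and 5.79. For these 2 genes the intervals of both 7-month libraries overlapped, and that of 18-month nicotine library 1 lay above both. In each of the 6 genes at least 1 of the 3 libraries thus differed in its raw ratio to Ttr by more than the counting intervals. Each ratio is from a single library, with no replicate behind it.

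**Figure D2:**
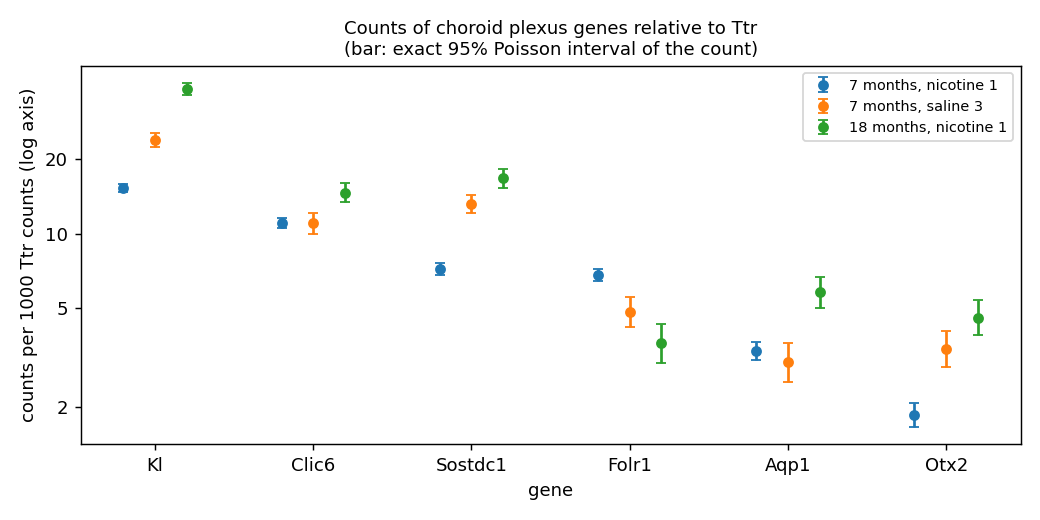
Counts of 6 choroid plexus genes per 1000 Ttr counts (log axis) in the 3 libraries with the most Ttr, with bars for the exact 95% Poisson interval of the gene's own count. Sostdc1 goes from 7.22 to 16.7 and Folr1 from 6.82 to 3.61 between 7-month and 18-month nicotine library 1.

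The pituitary transcripts were concentrated in 1 library. Gh, the growth hormone gene (chromosome 11, 106300271 to 106301865), had 89.5 CPM in 7-month nicotine library 1, from 2589 counts. In the other 7-month libraries it had 0.474, 0.0388 and 0.149 CPM (saline 1, 2 and 3) and 0.241 and 1.51 CPM (nicotine 2 and 3). At 18 months the levels of Gh were 0.446, 0.0449 and 0 CPM under saline and 0.127, 0 and 0.283 CPM under nicotine. Nicotine library 1 at 7 months held 96.9% of the Gh counts of all 12 libraries, and its level was 59.3-fold that of the next library. A count of 0 allowed up to 0.136 CPM in 18-month saline library 3 and 0.140 CPM in 18-month nicotine library 2.

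Prl, the prolactin gene (chromosome 13, 27057570 to 27065205), had 13.4 CPM in the same library, from 387 counts. Elsewhere it had 0.0678, 0 and 0 CPM (7-month saline), 0.0802 and 0.116 CPM (7-month nicotine 2 and 3), 0, 0.0449 and 0.0453 CPM (18-month saline) and 0, 0.0466 and 0.0472 CPM (18-month nicotine). These are at most 3 counts per library, and 97.2% of the Prl counts lay in 7-month nicotine library 1. Pomc codes for the precursor of corticotropin, melanocyte-stimulating hormone and beta-endorphin, and is also used by neurons of the arcuate nucleus (chromosome 12, 3954951 to 3960642). It had 68.6 CPM in that library, from 1983 counts, and 1.29, 0.621 and 1.05 CPM under saline and 1.16 and 1.43 CPM in the other nicotine libraries at 7 months. At 18 months it had 0.580, 0.360 and 0.543 CPM under saline and 0.423, 0.326 and 1.46 CPM under nicotine. Unlike Gh and Prl, Pomc was counted in all 12 libraries. Of the 4959 counts of the 3 genes in 7-month nicotine library 1, Gh made up 52.2%, Pomc 40.0% and Prl 7.80%.

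**Figure D3:**
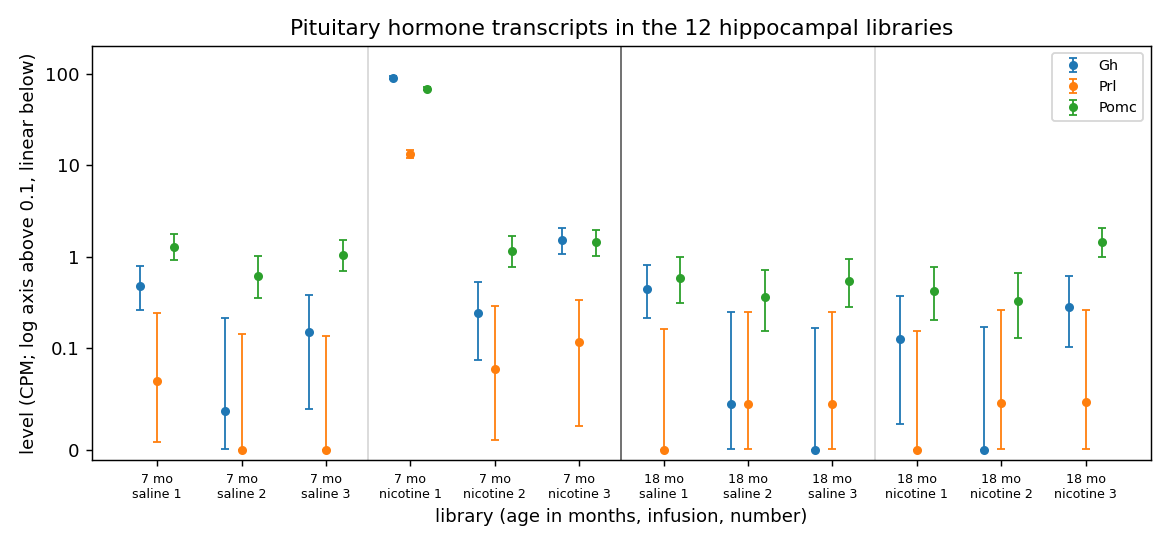
Level in CPM of Gh, Prl and Pomc in each of the 12 libraries (axis logarithmic above 0.1 CPM and linear below), with exact 95% Poisson intervals of the counts. All 3 reach 13.4 CPM or more in 7-month nicotine library 1 and stay at or below 1.51 CPM in the other 11 libraries.

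The libraries next in Ttr did not share the high pituitary levels. In 18-month nicotine library 1, where Ttr had 1395 CPM, Gh, Prl and Pomc summed to 0.550 CPM, within the 0.373 to 1.79 CPM of the other 18-month libraries. In 7-month saline library 3, with 1527 CPM of Ttr, Gh stood at 0.149 CPM and Prl at 0.

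Group means carried this spread. Ttr had 616 ± 790 CPM in 7-month saline, 2105 ± 3267 in 7-month nicotine, 22.8 ± 34.2 in 18-month saline and 467 ± 804 in 18-month nicotine libraries (SD, n = 3 each). Sostdc1 had 9.50 ± 9.24, 16.1 ± 22.9, 1.5 ± 1.1 and 8.86 ± 12.5 CPM and Kl 24.1 ± 11.5, 40.4 ± 42.7, 18.7 ± 2.52 and 30.8 ± 19.9 CPM in the same order. Gh had 0.221 ± 0.226, 30.4 ± 51.2, 0.164 ± 0.246 and 0.137 ± 0.142 CPM. Pomc had 0.985 ± 0.338, 23.7 ± 38.8, 0.494 ± 0.118 and 0.738 ± 0.631 CPM. The 7-month nicotine group was the highest for all 10 members, and the 18-month saline group the lowest for the 7 choroid plexus genes and Pomc. In none of the 10 did neighbouring groups in this order differ by more than the larger of their SDs.

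The nicotine comparison at 7 months was tested with edgeR's quasi-likelihood test over 17596 genes, of which 0.0114% passed at a Benjamini-Hochberg adjusted p of 0.05. Of the members, 0 of 9 tested passed, while 2 (Gh and Pomc) had an unadjusted p under 0.05, and 1144 of all genes did. Prl had too few counts to be tested. DESeq2 called 0 of the 7 choroid plexus genes and gave no p for Gh or Pomc. Ttr had a log2 fold change of 1.76 (SE 1.59, adjusted p = 0.683) and Gh of 7.01 (SE 2.20, adjusted p = 0.656). The other tested choroid plexus genes lay between 0.52 (Otx2) and 2.03 (Folr1), and Pomc at 4.56 (SE 1.58, adjusted p = 0.656). The median log2 fold change was 1.33 over the 7 choroid plexus genes and -0.008 over all genes tested. Without nicotine library 1, all 7 choroid plexus genes had a negative fold change, from -0.63 (Kl) to -1.72 (Sostdc1), and Gh had 1.93 and Pomc 0.38. Among the libraries that share the other description prefix (saline and nicotine 2 and 3), Ttr had -1.98, Sostdc1 -2.14, Kl -0.91, Folr1 -1.42, Clic6 -1.61, Aqp1 -1.20 and Otx2 -2.12. Saline and nicotine libraries overlapped in all 9 members, while they did not overlap in 17.4% of all genes.

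At 18 months 0.044% of 18196 genes passed, and of the members 0 of 6 tested. Only Sostdc1 had an unadjusted p under 0.05 (edgeR), as had 1225 of all genes. DESeq2 called 0 of the 3 members to which it gave an adjusted p (Kl, Aqp1 and Pomc), and gave none to Ttr, Sostdc1 or Clic6. Folr1, Otx2, Gh and Prl had too few counts to be tested. Ttr had a log2 fold change of 4.33 (SE 2.05, adjusted p = 0.757), Sostdc1 2.55 (SE 1.04), Aqp1 2.55, Clic6 1.89 and Kl 0.71. Pomc had 0.54. Without nicotine library 1 the sign changed in 3 of the 5 choroid plexus genes tested. Ttr then had -2.99, Clic6 -1.24 and Aqp1 -0.60, and Sostdc1 and Kl had 0.09 and 0.04. The groups overlapped in all 6 members, against no overlap in 11.8% of all genes.

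**Figure D4:**
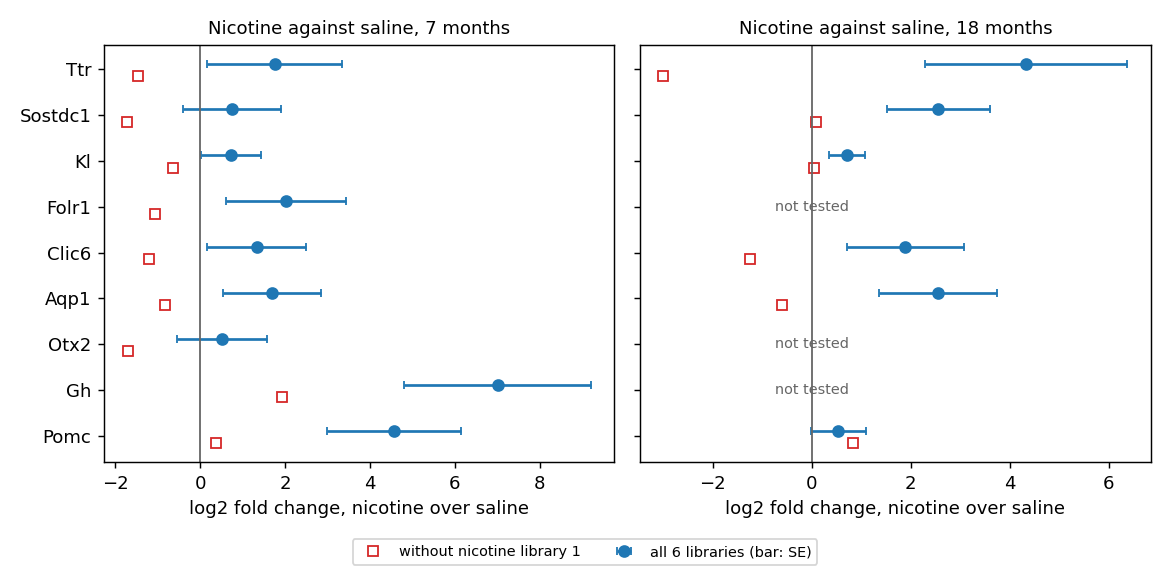
Log2 fold change, nicotine over saline, of the 9 members tested at 7 months (left) and the 6 tested at 18 months (right), from all 6 libraries of the age (circles, bars are SE) and without nicotine library 1 (squares). Prl was tested at neither age and is not drawn. The 7 choroid plexus genes change sign at 7 months, from 1.76 to -1.47 for Ttr.

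The nicotine effect averaged over both ages was called in 0.0365% of 19171 genes and in 0 of 9 tested members (edgeR, with 2 members and 1316 genes at an unadjusted p under 0.05, and 0 of 7 members by DESeq2, which gave no p for Gh or Pomc). Its difference between ages was called in 0.00522% of genes and in 0 of 9 members (0 members and 1504 genes at an unadjusted p under 0.05, and 0 of 7 by DESeq2). The effects at the 2 ages were thus not shown to differ in any member tested.

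Age was compared within each infusion. The 7-month and 18-month counts come from separate tables with unlike description prefixes, so age and library preparation cannot be told apart. Under saline, 46.1% of 19171 genes passed, and 24.6% passed with a lower level at 18 months. Of the members 0 of 9 tested passed by edgeR, with 0 at an unadjusted p under 0.05 against 10320 of all genes. Ttr had -4.76 on the log2 scale (SE 2.37, adjusted p = 0.118, and 0.0279 to 0.629 over 18 alternatives). DESeq2 called Ttr (adjusted p = 0.0475), 1 of the 7 members to which it gave an adjusted p. Folr1 had -3.85, Sostdc1 -2.66, Clic6 -2.28, Aqp1 -2.19, Otx2 -2.14, Pomc -0.996, Gh -0.47 and Kl -0.36. All 3 saline libraries at 18 months lay below all 3 at 7 months in 5 of the 9 (Ttr, Sostdc1, Folr1, Aqp1 and Pomc), a share close to the 49.7% of all genes whose groups did not overlap. The count of 0 changed to 4 members (Ttr, Sostdc1, Folr1 and Aqp1) when the nicotine libraries numbered 1 were left out. Those libraries are in neither group compared, but enter the filter, the scaling and the shared estimate of spread.

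Under nicotine, 59.3% of genes passed, and 29.8% with a lower level at 18 months. Of the 9 members tested, 2 passed, both pituitary transcripts. Gh had a log2 fold change of -7.76 (SE 2.0, adjusted p = 0.00538) and Pomc of -5.02 (SE 1.37, adjusted p = 0.00764). In both genes the age groups overlapped, as they did in all 9 members tested, while 68.9% of all genes had groups that did not overlap. Only 1 of the 3 nicotine libraries at 7 months was high. Without 7-month nicotine library 1 neither passed, with Gh at -2.65 (adjusted p = 0.0765) and Pomc at -0.83 (adjusted p = 0.211). DESeq2 gave neither gene an adjusted p. Over the alternatives the adjusted p ran from 0.000843 to 0.155 for Gh (16 alternatives) and from 0.00142 to 0.458 for Pomc (17 alternatives). The choroid plexus genes did not pass, with Folr1 at -2.95, Ttr at -2.17, Clic6 at -1.72, Aqp1 at -1.34, Otx2 at -0.89, Sostdc1 at -0.85 and Kl at -0.39. Leaving out 18-month nicotine library 1 brought the number of members called to 7, with Ttr at -9.49 (adjusted p = 0.0134).

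A list of 40 other genes of the choroid plexus epithelium, of which 39 were in the tables, was read alongside. It was chosen with earlier results of these data known, so its counts are not a separate test. Nicotine library 1 was the highest of the 6 libraries in 37 of 39 of these genes at 7 months and in 36 of 38 at 18 months (genes with at least 10 counts at the age, Slc5a5 and Ttc29 being the exceptions both times). Over all genes with at least 10 counts the same libraries were the highest in 16.2% and 14.5%. Enpp2, which codes for autotaxin and is also made by oligodendrocytes, had 1126 CPM in 7-month nicotine library 1 and 83.9 to 431 CPM in the other 7-month libraries. Slc4a5, a sodium bicarbonate cotransporter of the plexus, had 18.2 CPM there and 0.160 to 4.15 CPM elsewhere at that age. Prlr, the prolactin receptor, had 23.5 CPM there and 1.69 to 5.35 CPM elsewhere.

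The ratio of nicotine library 1 to the median of the other 5 libraries had a median of 6.74 over 37 of the listed genes at 7 months and of 3.41 over 28 at 18 months. Summed over the list, nicotine library 1 had 1750 CPM at 7 months, where the others had 228 to 710, and 799 CPM at 18 months, where the others had 211 to 296. Despite this, 0 of 34 listed genes tested at 7 months and 0 of 24 at 18 months passed in the nicotine comparison, with medians of 0.98 and 0.77 on the log2 scale. With age, 2 of 37 tested fell under saline, Perp at -0.89 (edgeR, adjusted p = 0.0319) and Slc29a4 at -0.44 (adjusted p = 0.0484), beside 24.6% of all genes called lower. Under nicotine 3 of 37 fell, Perp at -1.004 (edgeR, adjusted p = 0.0119), Cab39l at -0.63 (adjusted p = 0.0462) and Krt18 at -2.71 (adjusted p = 0.0487), beside 29.8% of all genes. The medians of the list with age were -1.32 and -1.07, where those of all genes were -0.029 and -0.026.

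**Figure D5:**
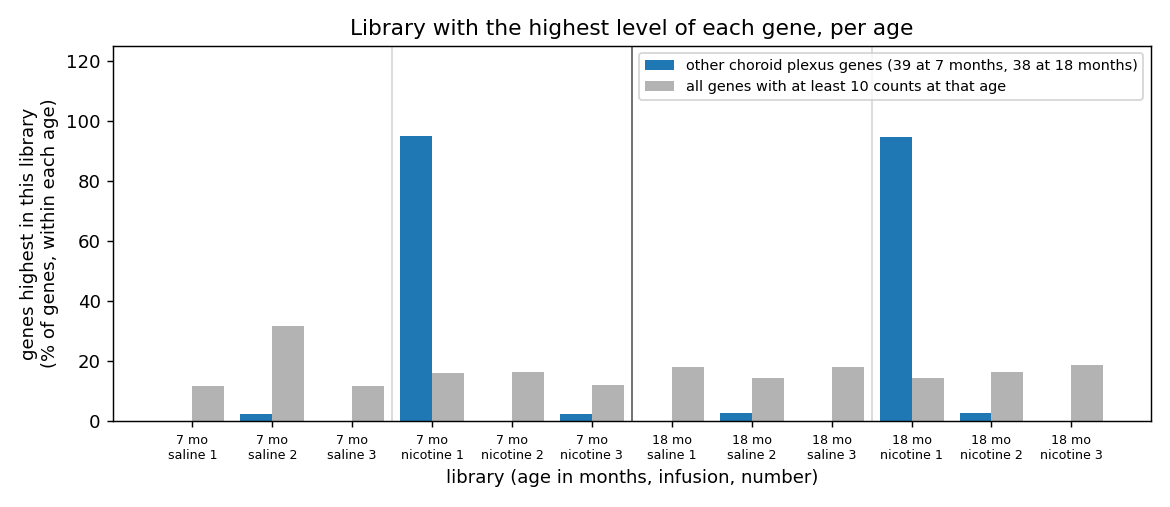
Share of genes, in percent, whose highest level within an age lies in each library, for the other choroid plexus genes (39 at 7 months, 38 at 18 months) and for all genes with at least 10 counts at that age. Nicotine library 1 holds 37 of 39 and 36 of 38 of the listed genes, against 16.2% and 14.5% of all genes.

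The 25 other pituitary genes did not move as a block. Glycoprotein hormone subunits were counted in 7-month nicotine library 1 above the other libraries. Cga, the common alpha subunit, had 80 counts there and 0 or 1 in each other library, Lhb 30 counts and 0 to 9 elsewhere, and Fshb 12 counts and 0 or 1 elsewhere. Ghrhr, the receptor for growth hormone-releasing hormone, had 5 counts there and 0 in the other 11 libraries. Tshb had 31 counts, close to the 14 to 25 of the other libraries, and Pou1f1, the factor of growth hormone, prolactin and thyrotropin cells, had 1 count. Gnrhr had 0 counts in all 12 libraries, and Pax7 had 0 in 7-month nicotine library 1 and 0 or 1 elsewhere. In all, 6 of 17 listed genes with at least 10 counts were the highest there at 7 months, and 6 in 7-month saline library 2. Over all genes these libraries were the highest in 16.2% and 31.8%. The summed level of the list was 209 CPM in 7-month nicotine library 1 and 168 to 222 CPM in the other 7-month libraries. Most of it came from genes that neurons also express. Among them, Chga had 4734 counts in nicotine library 1 and 2802 to 4671 elsewhere at 7 months. None of the 9 tested genes of the list passed in the nicotine comparison at 7 months, nor any of the 8 at 18 months. With age Chga and Crhr1 fell and Ghsr rose under both infusions. Under each infusion 2 of 8 tested genes were called lower and 1 higher. Beside this, 46.1% of all genes were called either way under saline and 59.3% under nicotine.

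Other tissue near the hippocampus was read from fixed lists in the same library. Hypothalamic neuropeptides and regulators summed to 14.6 CPM, within the 9.20 to 15.6 CPM of the other 7-month libraries. The hypothalamus is another known place of Pomc transcripts. The 15.6 CPM was in saline library 1, where Avp alone had 5.25 CPM, against 2.07 CPM in nicotine library 1. Of 15 listed genes with at least 10 counts, 5 were highest in 7-month nicotine library 1 and 0 to 3 in each other 7-month library. Over all genes that library was the highest in 16.2%. Meningeal and fibroblast genes summed to 370 CPM in 7-month nicotine library 1, against 113 to 245 CPM in the others. Of this sum 283 CPM came from Igf2 and Igfbp2, the only 2 of the 15 genes that were highest in 7-month nicotine library 1. The other 13 summed to 87.4 CPM, within the 60.6 to 145 CPM of the other 7-month libraries. Igf2 and Igfbp2 were set apart after their values were seen, so the sum of the rest is not a separate test. Ependymal genes summed to 75.6 CPM, against 49.3 to 66.2 CPM. In 18-month nicotine library 1 the meningeal list summed to 165 CPM, of which Igf2 and Igfbp2 made up 98.3 CPM, and the ependymal list to 41.4 CPM, and the remaining 18-month libraries lay at 76.5 to 157 and 28.5 to 50.2 CPM. The part of these tissues in the levels of the members was not tested.

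The genes whose pattern over the 12 libraries was most like each member were found by the root mean square difference of log2(CPM + 0.5). Values were centred on the mean of each age. The search covered 13535 genes with a mean of at least 1 CPM. It left out the members and predicted or clone names, such as 1500015O10Rik of the other choroid plexus list. The 5 nearest to Ttr were Slc4a5, Kcne2, Kcnj13, Cldn2 and F5, at differences of 1.59 to 1.83, and the nearest to Sostdc1 was Kcne2, at 0.32. Kl was nearest to Slc16a8 (0.19), Abca4, Trpv4, Pla2g5 and Rdh5. The nearest gene was Wdr86 for Folr1, Kcnj13 for Clic6, Tmem72 for Aqp1 and Enpp2 for Otx2. The nearest 5 of the 7 choroid plexus members were 13 different genes, of which 10 were on the other choroid plexus list. Among themselves the choroid plexus members other than Ttr and Kl were at 0.38 to 0.61 from each other, while Ttr was at 1.39 or more from each. The pituitary members were nearest to each other, Prl and Pomc at 0.38, Gh and Pomc at 0.52 and Gh and Prl at 0.70. Outside the members their nearest 5 were 7 different genes. Of these, 5 were on the other choroid plexus list, such as Steap1 (1.26 from Gh), and the other 2 were Angptl2 and Igfbp2. Low pituitary genes such as Cga lay under the limit of 1 CPM and could not appear. With Pearson correlation as the measure, 0 of the 5 nearest genes of each pituitary member remained. By that measure, which ignores the size of the changes, the 5 genes nearest to Ttr were at 0.92 to 0.94. Those nearest to Sostdc1 were at 0.96 to 0.98.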

How the data were processed

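RNA from hippocampus was measured in 12 libraries. The deposited files are 2 tables, 1 per age, of raw counts of fragments per gene, which the authors left without normalization. TopHat was the aligner and GRCm38 the build, per the submitters' processing notes. The counting tool, annotation and strand setting are not given in the sources used here, so reads from a gene and from an antisense partner cannot be told apart. The labels' protocol describes a small RNA kit, while the counts cover long genes. The 44760 genes with the same name in both tables were joined for fits and levels over both ages.

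The test on counts was the quasi-likelihood F-test of edgeR 4.0.16 under R 4.3.3, after filterByExpr and TMM scaling, with Benjamini-Hochberg adjustment at 0.05 over all genes. Each SE was derived from the log2 fold change and its F statistic, and so restates that test. Nicotine within an age used that age's 6 libraries, and the other contrasts used 4 group means over 12. No exact permutation test was run, as 0.1 is the smallest two-sided p it allows for 3 against 3 libraries. Poisson intervals are exact at 95%, and the limit for a count of 0 is 3 counts.

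The members, marker lists and alternatives were chosen with earlier results of these data known. The rule for named genes took the 10 members in every comparison, at most the 4 genes with the smallest p of a list described, and the 5 genes most like a member. Other genes, among them Enpp2, Slc4a5, Prlr and the pituitary genes given in counts, were named after their values were seen. Alternatives were RLE size factors, no filter beyond 1 count, DESeq2 1.42.0, a replicate block, each library left out in turn, fits with other libraries, CPM by total counts, and for likeness a pseudocount of 1 or 0.1 or Pearson correlation. The procedure was tested on simulated counts, drawn around a shared mean per gene with set changes between groups. No single high library was put in, so that case was not tested. Coordinates are from GENCODE on GRCm38. Descriptions used Python 3.11.15 with pandas 2.3.3 and numpy 2.4.6, and plots matplotlib 3.10.9.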

Additional observations from a re-analysis of the deposited data

How the results depend on the processing

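With 3 libraries per group the 2 high nicotine libraries decide most values. The number of members called stayed at 0 for nicotine at 7 months, at 18 months, averaged and as a difference between ages under every alternative run, although DESeq2 gave an adjusted p to only 7 of the 9 tested members (3 of 6 at 18 months). Under saline, the number called for age was 1 with DESeq2, 2 with only the 6 libraries compared (Sostdc1 and Folr1) and 4 without the nicotine libraries numbered 1. Under nicotine DESeq2 called 0, but gave no adjusted p for Gh or Pomc, the 2 called by edgeR. The number went from 2 to 1 with only the 6 libraries compared (Pomc, adjusted p = 0.0314 by edgeR, with too few counts to test Gh) and to 1 without the nicotine libraries numbered 1 (Ttr, adjusted p = 0.0306). Leaving out 1 library at a time gave 0 to 7, with 0 without 7-month nicotine library 1 and 7 without 18-month nicotine library 1. Without 7-month saline library 2 the counts of members called did not move.

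Libraries of the same number were not treated as pairs in the main fits, although both 7-month libraries numbered 1 share a description prefix. Departures of same-numbered libraries from their group means had correlations of 0.0857, -0.0494 and -0.108 at 7 months and -0.113, -0.109 and -0.105 at 18 months. With the replicate block, members called stayed at 0 and, for age under nicotine, at 2, and the nicotine fold change at 7 months became -0.64 for Ttr, -0.47 for Sostdc1, -0.20 for Clic6 and -0.57 for Otx2. Without both 7-month libraries numbered 1 it was -1.98 for Ttr, -2.14 for Sostdc1, -0.91 for Kl, -1.42 for Folr1, -1.61 for Clic6, -1.20 for Aqp1 and -2.12 for Otx2. Kl had 0.30 for age under nicotine without the nicotine libraries numbered 1. The cause of these changes was not tested.

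Leaving out 1 library at a time, nicotine at 7 months gave -1.47 to 3.68 for Ttr, -1.72 to 1.92 for Sostdc1, -0.63 to 1.15 for Kl, -1.06 to 3.15 for Folr1, -1.21 to 1.99 for Clic6, -0.82 to 2.72 for Aqp1 and -1.71 to 1.23 for Otx2. Nicotine at 18 months gave -2.99 to 7.28 for Ttr, -1.24 to 3.32 for Clic6, -0.60 to 3.10 for Aqp1 and -0.40 to 0.89 for Pomc. Age under saline gave -0.65 to 0.073 for Kl and -3.09 to 0.76 for Gh. Age under nicotine gave -9.49 to 1.06 for Ttr, -3.31 to 1.61 for Sostdc1, -1.05 to 0.97 for Kl, -5.92 to 0.13 for Folr1, -4.85 to 0.82 for Clic6, -4.49 to 1.18 for Aqp1 and -4.30 to 1.34 for Otx2. The highest level of each member at each age moved by less than the spread between libraries with CPM by total counts. Outside 7-month nicotine library 1, Prl had 0 to 3 counts and Gh 0 to 39 counts per library.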

Other observations

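Markers of other tissue were read in nicotine library 1 of each age, the library of its age with the most choroid plexus transcripts. Over the 7 members, 7-month saline library 3 (1617 CPM) lay above 18-month nicotine library 1 (1512 CPM), and is not singled out here. Genes of thalamus and habenula summed to 119 CPM in 7-month nicotine library 1, against 109 to 150 in the rest of that age, and to 118 CPM in 18-month nicotine library 1, against 117 to 134. Striatal genes summed to 258 CPM in the first, against 221 to 249, and to 263 CPM in the second, against 239 to 266. Pineal genes summed to 5.95 CPM, against 3.03 to 4.26, and to 3.26 CPM, against 2.22 to 3.73. Blood transcripts, mainly haemoglobins, summed to 267 CPM, against 138 to 350, and to 75.8 CPM, against 35.3 to 129.

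The vasopressin gene Avp, a product of hypothalamic neurons, had 155 counts in 7-month saline library 1 and 60 in 7-month nicotine library 1, the libraries that share a description prefix, and 3 to 25 counts in the other 7-month libraries. In the 18-month libraries Avp had 1 to 5 counts. Oxt, the oxytocin gene, had 11 counts in 7-month nicotine library 1 and 2 to 5 in the other 7-month libraries. Oxt had too few counts to be tested. Avp had a log2 fold change with age of -4.09 under saline (edgeR, adjusted p = 0.0159), where the age groups overlapped. Under nicotine it was -3.25 (edgeR, adjusted p = 0.0464), and the groups did not overlap. Of all genes, 24.6% were called lower with age under saline and 29.8% under nicotine. Groups did not overlap in 49.7% and 68.9% of all genes. Age and library preparation cannot be told apart for Avp either. The nicotine comparison of Avp at 7 months gave -1.02 (edgeR, adjusted p = 0.718). No alternatives were run for Avp.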
